A study of Homo sapiens with 6 samples.

Results

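The regions described here carried little DNA methylation in either genotype of a leukemia cell line. They were chosen by the deposited levels themselves: at least 5 CpG sites, a mean under 5% in the control group and a mean under 5% in the DNMT3B knockout group. The rule took 4637 of 35130 regions, and 4637 of the 34885 regions with at least 5 sites (13.3%). Because the levels of both groups chose the members, those levels are given as a description and are not tested. The word unmethylated holds only up to the limit of the rule: no member had both means at 0, and 212 (4.57%) had both under 1%.

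Reduced representation bisulfite sequencing was done on M07e, an established human cell line from an acute megakaryoblastic leukemia, kept in 10 ng/mL GM-CSF, a growth factor. The 3 control libraries are labelled WT and the 3 other libraries DNMT3B knockout, made with CRISPR in the same line. Fusions or mutations that M07e carried before the edit should therefore be in both groups, and later changes in either group are not known. The labels do not say whether the knockout is 1 clone or a pool, or whether replicates were separate cultures. The authors' deposited table gives 1 mean per group and region, so there is no spread between libraries, no read depth and no test between libraries. The knockout column carries a code that no label explains and was read as the knockout because it is the only other group, so each direction below rests on that reading. Of the members 4579 lay on autosomes, 57 on X and 1 on mitochondrial DNA.

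Cytosines followed by guanine are the main sites of DNA methylation in human cells. Most of the genome is methylated at these sites, while CpG islands, the dense runs found at many gene starts, are usually kept free of it. DNMT3B adds methyl groups to unmethylated DNA, DNMT1 copies existing methylation after replication, and TET enzymes oxidise methylated cytosine. The method cuts DNA with MspI at CCGG, so it reads mostly CpG-rich sequence, and at a gene start it often reads the island.

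Sequences of 10 members that lie wholly upstream of a gene start and in no annotated gene show what was measured. They come from RefSeq promoter windows of GRCh38.p14 (the build of the files, hg38), are written 5′ to 3′ on the strand of the gene, and include up to 20 bases of flank. Capitals mark CpG bases from the first to the last measured site, and a lone capital is a CpG cut by the end of the region. Of 429 members in such a position, 12 met the rule for named regions or had an authors' q under 0.01, and 10 of them, 1 per gene, are shown. The group levels follow the sequences.
TAL1, chr1:47232385-47232545, minus strand: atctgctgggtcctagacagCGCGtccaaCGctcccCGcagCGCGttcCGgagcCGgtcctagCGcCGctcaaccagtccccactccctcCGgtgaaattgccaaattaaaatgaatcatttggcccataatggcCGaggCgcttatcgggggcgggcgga
ETV6, chr12:11649550-11649603, plus strand: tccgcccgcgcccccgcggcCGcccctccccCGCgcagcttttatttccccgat
DNMT1, chr19:10194954-10195003, minus strand: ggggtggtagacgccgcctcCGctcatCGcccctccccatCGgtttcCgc
RPL13, chr16:89560407-89560455, plus strand: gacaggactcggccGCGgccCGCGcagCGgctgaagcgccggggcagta
RPS9, chr19:54200767-54200843, plus strand: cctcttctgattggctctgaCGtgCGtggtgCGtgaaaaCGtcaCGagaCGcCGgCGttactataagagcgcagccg
SF3B6, chr2:24076347-24076402, minus strand: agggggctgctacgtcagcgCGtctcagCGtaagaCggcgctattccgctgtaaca
ACTMAP, chr19:40750616-40750665, minus strand: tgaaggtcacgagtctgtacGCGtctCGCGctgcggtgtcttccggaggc
LHFPL2, chr5:78648774-78648890, minus strand: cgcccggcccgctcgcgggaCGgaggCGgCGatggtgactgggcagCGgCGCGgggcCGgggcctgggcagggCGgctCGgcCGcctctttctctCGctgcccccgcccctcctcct
FAN1, chr15:30903741-30903851, plus strand: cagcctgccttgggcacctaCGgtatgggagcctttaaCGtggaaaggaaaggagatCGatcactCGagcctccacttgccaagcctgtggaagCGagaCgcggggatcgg
COMMD4, chr15:75335943-75336011, plus strand: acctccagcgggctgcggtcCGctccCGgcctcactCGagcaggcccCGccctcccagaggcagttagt

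At TAL1, a transcription factor gene of blood stem cells and megakaryocytes, 9 sites had a control mean of 0.895% and a knockout mean of 1.53%. At ETV6, an ETS family repressor gene needed for platelet formation, 5 sites had 0.949% and 3.38%. The region 3 bases upstream of DNMT1, the maintenance methyltransferase gene, had 1.45% and 0.836% over 7 sites. The ribosomal protein genes RPL13 (0.622% and 2.13%, 9 sites) and RPS9 (0.372% and 4.17%, 11 sites) had the higher mean in the knockout. So did SF3B6, a splicing factor gene (0.258% and 3.78%, 5 sites), and ACTMAP (0.475% and 1.94%, 7 sites), whose start lies close to that of the spliceosome gene SNRPA. The order was the other way round at LHFPL2 (4.83% and 0.838%, 14 sites) and COMMD4 (4.95% and 0.155%, 5 sites). At FAN1, a DNA repair nuclease gene, the control mean was 0 and the knockout mean 4.86% over 5 sites.

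The sequences also show how the table counts. In all 2482 regions that lie inside a promoter window, both ends fell on a CpG base when the first site was placed 2 bases after the file's start and the last site 1 base after its stop, while the plain half-open reading placed both ends on a CpG in 38.7%. Positions here are given in the first way. The number of sites never exceeded the CpG cytosines of both strands in these 2482 regions, and equalled them in 747 of 1150 members (65.0%), against 32 (2.78%) for CpG pairs counted once. A member of 5 sites therefore holds few CpG positions: the median over the 1150 members was 3 CpG pairs for a median of 5 counted sites. At SF3B6 the 5 capital bases are 2 whole CpGs and 1 base of the next.

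For contrast, only 2 regions in the same kind of position had a control mean under 5% and were called higher in the knockout, with called meaning an authors' q under 0.01 and a difference of at least 25 points. They are printed in the same way.
PPP2R2C, chr4:6563905-6564044, minus strand: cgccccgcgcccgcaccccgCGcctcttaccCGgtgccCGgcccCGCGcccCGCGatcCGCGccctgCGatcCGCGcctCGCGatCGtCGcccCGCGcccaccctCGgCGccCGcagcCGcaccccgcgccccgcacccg
ZNF625, chr19:12156735-12156858, minus strand: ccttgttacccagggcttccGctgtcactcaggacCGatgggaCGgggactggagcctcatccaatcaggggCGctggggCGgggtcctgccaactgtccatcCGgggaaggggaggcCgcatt
The PPP2R2C region, upstream of a phosphatase subunit gene, had 0.444% in the control and 30.04% in the knockout over 30 sites, and the ZNF625 region, upstream of a zinc finger gene, had 0.516% and 29.8% over 10 sites. The first stretch holds 31 CpG pairs in 140 printed bases and the second 7 in 124, while those of the members TAL1 and RPL13 hold 16 in 161 and 8 in 49.

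Levels within the members were low but seldom equal. The control means had a median of 1.06% (quartiles 0.544% and 2.15%), and the knockout means a median of 1.82% (quartiles 0.729% and 2.88%). The control was under 1% in 2210 members (47.7%) and the knockout in 1511 (32.6%). In 2726 members (58.8%) the knockout mean was the higher one, against 68.5% of all regions with at least 5 sites. That background includes 9549 regions with a control mean under 5% and a knockout mean of at least 25%, higher in the knockout by definition. Among the 18980 regions outside all classes compared below, the share was 60.5%, close to that of the members. Members with the knockout higher went from a median of 0.635% to 2.65%, and those with it lower from 2.39% to 0.609%. The higher mean was at least 2 times the lower in 3904 members (84.2%), and only 328 (7.07%) differed by under 0.5 points.

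**Figure D1:**
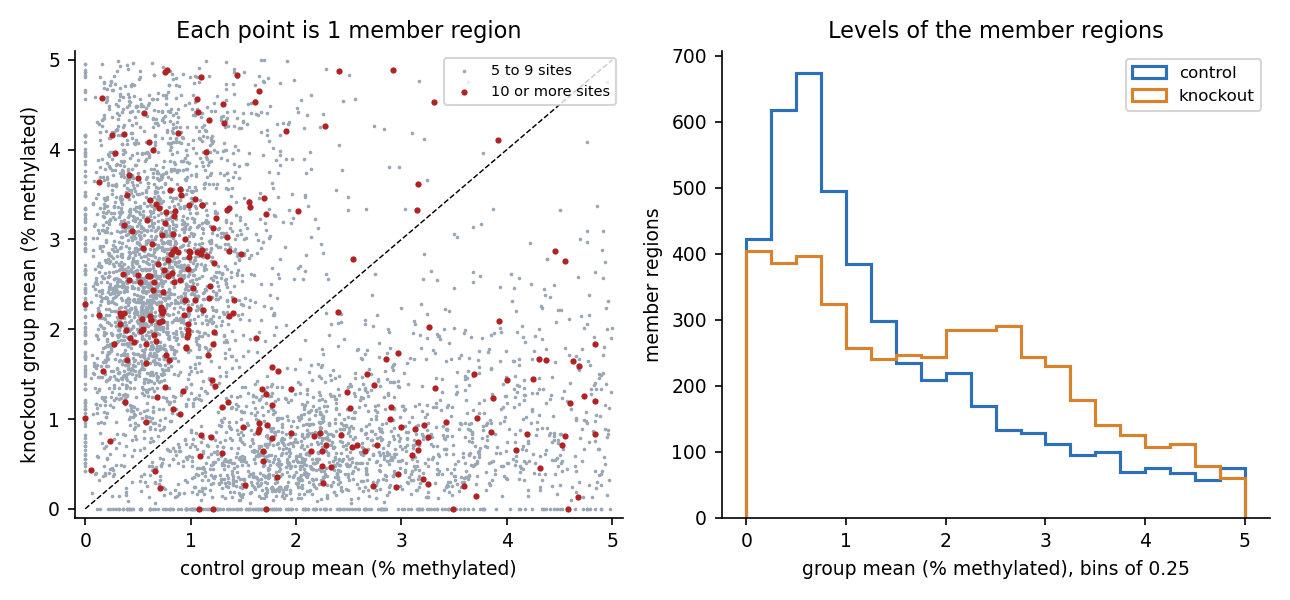
Left: control against knockout group mean (percent methylated) of the 4637 member regions, with regions of 10 or more sites in red and the line of equal means dashed. Right: the number of members per bin of each group mean. Points lie in a group above the line and a group below it, with few members close to equal means, and the control levels peak under 1%.

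Among the table's regions with at least 5 sites the smallest absolute difference was 0.101 points, so none with equal means is listed there. The sparse band along the line of equal means is wider than that limit, and its source was not tested. The members are the low regions that this table lists, and low regions with equal means may have been read without being listed. Over the 4637 members the 2 means had a Pearson r of -0.438 and a Spearman rho of -0.467, a description over regions chosen by the limit of 5% on both means. A group mean of 1% or 2% cannot tell many cells with little methylation from few cells with much of it. No source used here gives the rate of bisulfite conversion, and cytosines left unconverted would add to levels of this size.

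The authors' q in the deposited table was under 0.01 for 20 members (0.431%), against a share of 9.11% over all 34885 regions with at least 5 sites. No member was called, where the share over all regions was 6.79%, since the rule itself keeps the difference under 5 points. Nothing is read from either count, as the rule used the same contrast. Among the 20, the smallest q in the authors' deposited table was that of SF3B6 (0.000686). RPL27, a ribosomal protein gene, went the other way, with 4.30% in the control and 1.05% in the knockout over 9 sites. The mitochondrial ribosomal gene MRPL58 had 0.292% and 2.28%, and GNL3L, a nucleolar GTPase gene on X, had 0.609% and 4.08% over 16 sites. MRPL58 and GNL3L were chosen after their values were seen.

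Most members were short. The median member spanned 28 bases (quartiles 16 and 54), against 58 over all regions with at least 5 sites, and 2819 members (60.8%) had exactly 5 sites, against 40.1%. Together they covered 213.8 kilobases of 3231. Only 251 members had 10 or more sites, 22 had 15 or more and 6 had 20 or more. The share of regions that were members was 20.2% at 5 sites, 8.92% at 6, 13.3% at 7 to 9, 4.72% at 10 to 14 and 0.730% at 15 or more. Listed regions of 15 or more sites were thus rarely under 5% in both columns of this table. Region ends follow the data, so these lengths need not be those of unmethylated runs.

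The longest runs were at genes of varied roles. TRADD, an adaptor of TNF receptor signalling, held 36 sites over 300 bases inside the gene (chromosome 16, 67155335 to 67155634) with 2.40% in the control and 2.19% in the knockout. VMA21, an assembly factor of the vacuolar proton pump on X, held 30 sites starting 11 bases downstream of its start, with 3.92% and 4.11%. At the imprinted gene GNAS, which encodes a stimulatory G protein subunit, 25 sites inside the gene and 1192 bases from a start (chromosome 20, 58890372 to 58890433) had 0.255% in the control and 4.17% in the knockout.

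CYTH1 had 24 sites across its start with 1.19% and 2.48%, and PGAP6 had 21 with 2.95% and 0.239%. The rest of the 10 taken, of 16 to 18 sites, were at OGFOD3, ADM2, ERMP1, ZBTB7A and DACT3. ZBTB7A, a repressor of fetal globin genes, had 0.987% and 3.38% over 17 sites. Over these 10 regions no group mean exceeded 4.17%. The direction was mixed: 7 were higher in the knockout and 3 were lower.

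The members lay at gene starts. Of 4473 members on chromosomes with annotated starts, 3297 (73.7%, exact Clopper-Pearson 95% interval 72.39 to 74.99) were within 1000 bases of a start, against 31.8% of all regions with at least 5 sites and 25.3% of those that were not members. Chromosome 8 and mitochondrial DNA had no starts in the tables used here and are left out of these shares. The interval covers counting over regions, which are not independent, and not the spread between libraries. Within 250 bases of a start lay 50.01% of members and 17.7% of all regions, and the median distance was 250 against 6945 bases.

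Members spanned a start in 6.19% of cases, lay upstream of it in 24.9% and downstream in 42.7%. All 3 places were alike in the share of their regions that were members, at 29.9% of regions across a start, 31.8% upstream and 30.6% downstream. That share was 10.8% at other gene ends, 3.36% in gene interiors and 4.13% between genes. By distance it was 36.6% in the 500 bases before a start and 34.2% in the 500 after it, 14.8% and 16.8% in the next 500 on either side, and at most 8.99% in each bin farther out to 5000 bases. The median control mean was 0.981% downstream of starts, 1.00% upstream and 1.44% in gene interiors. The knockout medians of the same places were 1.82%, 1.91% and 1.73%.

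**Figure D2:**
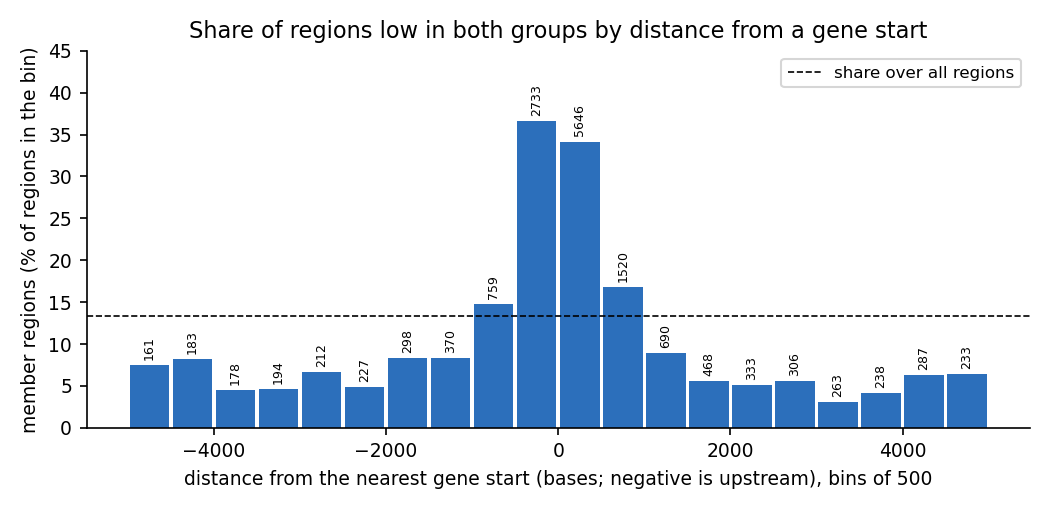
Share of regions with at least 5 sites that were members (percent), in bins of 500 bases by signed distance from the nearest gene start, with the number of regions of each bin printed above its bar and the share over all regions (13.3%) dashed. The bins on both sides of the start stand at 36.6% and 34.2%, and all bins beyond 1000 bases lie under 9%.

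Members were near starts more often than each other class of region, while regions high in both groups had a like CpG density. These differences were not tested. Regions low in the control only (knockout at least 25%, 9549 regions) were near a start in 16.4%, those low in the knockout only (1478) in 28.1%, and those at 80% or more in both groups (241) in 18.3%. Members had a median of 21.7 sites per 100 bases, against 9.80 in regions low in the control only, 12.8 in those low in the knockout only and 21.4 in regions high in both. Members that were near starts included more starts on both strands within reach (29.3%, against 20.3% of all regions near a start) and more protein-coding starts (88.2% against 82.0%).

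The class low in the control only is an uneven yardstick. In 7360 of its 9549 regions (77.1%) the control was at 0 and the knockout between 25% and 33.33%, the value that 1 library at 100% and the other two at 0 would give, and whether single libraries did so cannot be seen in group means. Without any region that had a mean at exactly 0, 29.01% of this class were near a start, and 74.0% of members were. Members had a control mean of exactly 0 in 134 cases (2.89%) and a knockout mean of 0 in 236 (5.09%).

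**Figure D3:**
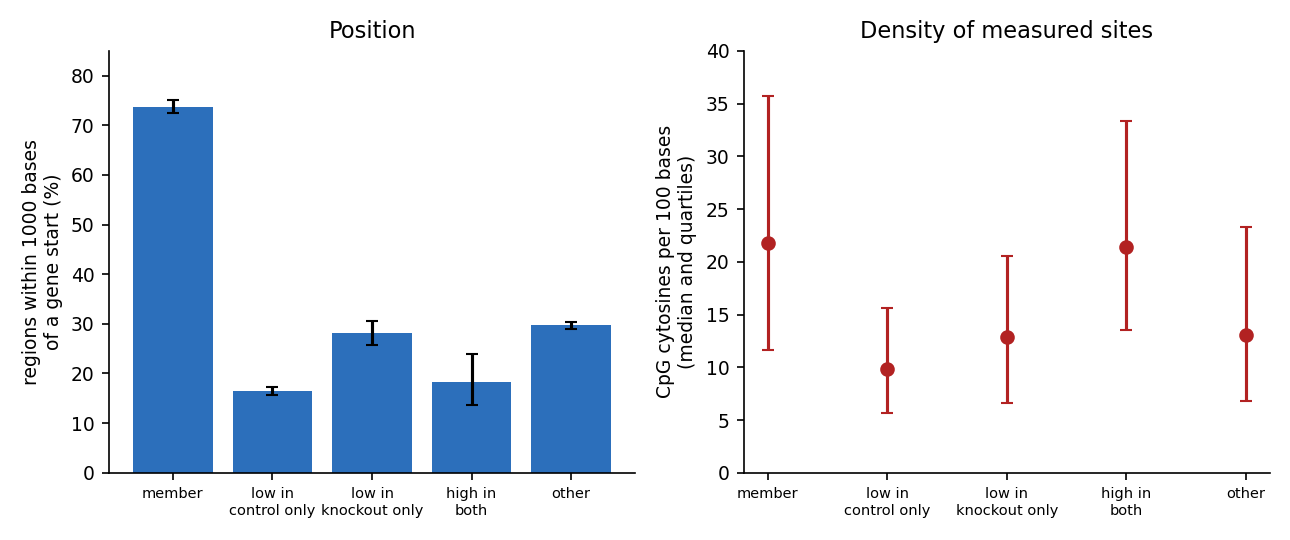
Left: percent of regions of each class within 1000 bases of a gene start, with exact 95% binomial intervals over regions. Right: median CpG cytosines per 100 bases with quartiles. Members stand at 73.7% near starts with a median density of 21.7, and regions high in both groups have a like density (21.4) but only 18.3% near starts.

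Promoter sequence was compared in RefSeq windows of 300 bases, from 250 before to 50 after a start. Windows overlapped by a member (1774) had a median of 31 CpG pairs, windows with regions but no member (2383) had 28, and all 35116 windows had 14. GC content had a median of 69.3% in both of the first sets. The ratio of observed to expected CpG had a median of 0.902 in windows with a member, 0.813 in those with other regions only and 0.579 in all. Windows with a member thus held more of their possible CpG pairs at the same median GC content.

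Motifs were searched on both strands as exact letters. CCGGAAG, a core bound by ETS factors, was in 28.1% of windows with a member, 10.9% of windows with other regions only and 10.3% of all windows. It contains the MspI site CCGG, which was in 100% and 99.96% of the first sets. The method reads DNA next to cut sites, so these shares could hardly differ. The number of CCGG sites per window was not compared. At matched CpG number it was in 32.6% against 12.1% in windows of 10 to 19 CpG pairs, 35.2% against 13.6% at 20 to 29, and 23.2% against 8.93% at 30 or more. Under 10 CpG pairs there were 3 windows with a member, none with these letters, and 82 with other regions only (7.32%). The related letters without CpG, CAGGAAG, a search chosen after the values were seen, were in 10.5% and 10.2%.

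Other motifs with the higher share in windows with a member had smaller differences in percentage points. As a ratio of the 2 shares, the YY1 letters differed more than the ETS letters. GCGCATGC, bound by NRF1, was in 6.82% of windows with a member and 2.73% of those with other regions only, AAGATGGC (YY1) in 5.52% and 1.80%, and TGACGTCA (CREB) in 3.44% and 1.68%. CCAAT (NF-Y) was in 30.8% and 24.4%, and GGGCGG (SP factors) in 79.7% and 74.7%. At matched CpG number the order for GGGCGG was not kept, with 43.3% against 52.5% at 10 to 19 CpG pairs, 73.3% against 73.1% at 20 to 29, and 88.63% against 88.64% at 30 or more. NRF1 letters were in 3.55% against 3.24% at 10 to 19 pairs, 6.89% against 2.61% at 20 to 29 and 7.26% against 2.80% at 30 or more. YY1 letters were in 3.55% against 2.16%, 6.89% against 1.51% and 5% against 1.98% in the same bins. TATAAA, the TATA box, had the opposite order, with 2.54% and 4.87%. The letters AGATAA, read by factors such as GATA1, were in 2.71% and 3.57%, TGTGGT (RUNX) in 7.33% and 7.34%, and CACGTG (the E-box) in 9.87% and 9.44%, values that lie close in both sets for factors that include main regulators of megakaryocytes. A match is a run of letters and not a bound site, and these shares were not tested.
ZBTB33, chrX:120250698-120250734, plus strand: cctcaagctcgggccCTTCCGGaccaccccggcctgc
SF3B6, chr2:24076464-24076500, minus strand: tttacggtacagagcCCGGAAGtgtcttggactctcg
MRPL58, chr17:75012462-75012498, plus strand: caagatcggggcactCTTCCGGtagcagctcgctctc
These 3 windows are shown for the ETS letters, in capitals on either strand, 99, 159 and 193 bases before the starts of ZBTB33 (which encodes Kaiso, a reader of methylated DNA), SF3B6 and MRPL58. The member at ZBTB33 had 0.989% in the control and 2.87% in the knockout over 10 sites.

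**Figure D4:**
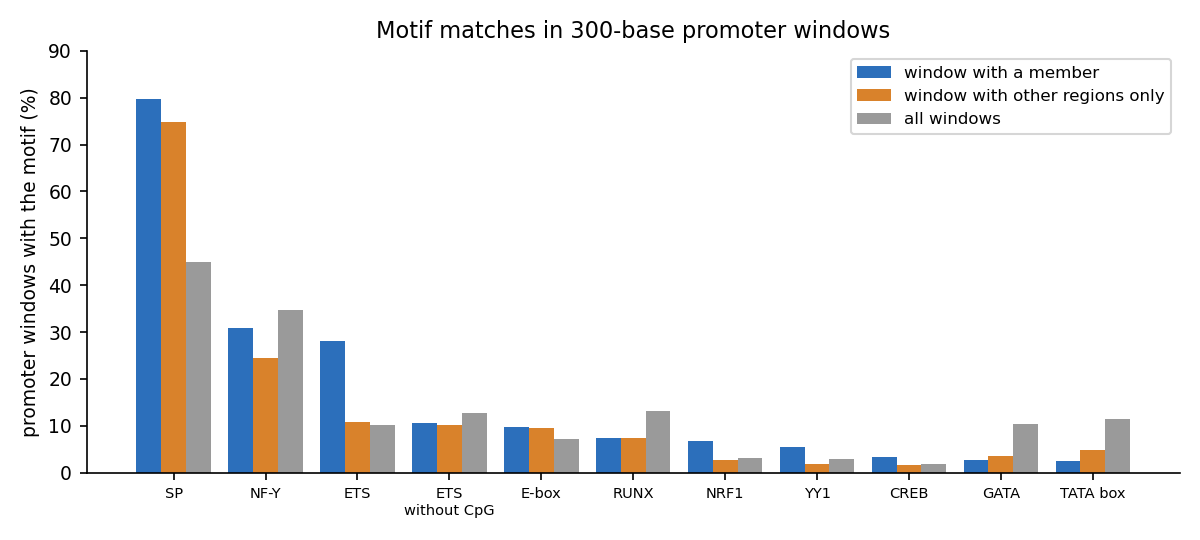
Percent of promoter windows that hold each motif on either strand, for 1774 windows overlapped by a member, 2383 windows overlapped by other regions only and all 35116 windows. The ETS bar stands at 28.1% for windows with a member and 10.9% for those with other regions only, while the form of it without CpG is at 10.5% and 10.2%.

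By gene, 9933 genes had a region with at least 5 sites within 1000 bases of a start, and 3990 of them (40.2%) had a member there. In 3534 every measured region at the start was a member. The share was 42.6% for protein-coding genes and 32.1% for long noncoding RNA genes. Of 737 genes with a member and at least 1 further region at the start, 38 (5.16%) also had a called region there, against 392 of 1552 genes (25.3%) with at least 2 regions and no member. A member cannot itself be called, so part of that gap is set by the rule.

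Gene lists of basic cell functions had high shares of genes with a member at a start. Mitochondrial ribosomal protein genes had one in 23 of 28 measured genes, cytosolic ribosomal protein genes in 17 of 25, proteasome genes in 11 of 14, complex I genes of the respiratory chain in 13 of 17 and translation initiation factor genes in 19 of 29. Splicing genes had one in 5 of 6, DNA replication genes in 14 of 20, cell cycle genes in 7 of 11 and housekeeping genes in 8 of 12. These shares stood between 63.6% and 83.3%, beside 40.2% of all genes, and the lists were not tested. Many genes of these lists were not measured at a start: 28 of 77 mitochondrial and 25 of 86 cytosolic ribosomal protein genes were measured. In both of these lists only 69 genes had a start among those used here, and the rest could not be scored.

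Single starts show how small the levels were. MRPL16, with 10 sites across its start, had 0.691% in the control and 2.72% in the knockout. EIF2B1, a subunit gene of a translation initiation factor, had 1.57% and 3.37% over 11 sites. NDUFA6, a complex I subunit gene, had 0.989% and 2.23% over 11 sites, and the assembly factor gene NDUFAF3 had 0.747% and 2.66% over 12. TUBA1B, a tubulin gene, was lower in the knockout, with 2.52% and 1.12% over 10 sites, and so was PSMA5, a proteasome subunit gene, with 3.04% and 0.851% over 8. MCM10, a replication factor gene, had 1.68% and 0.208% over 8 sites. CDKN1A, which encodes the cell cycle inhibitor p21, had 0.796% and 1.93% over 8 sites across its start.

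Directions within these lists were mixed, also within a gene. A further member at MRPL16 had 4.48% and 0.771%, and one at EIF2B1 had 2.29% and 0.149%, the opposite order to those above. Of 19 member regions at cytosolic ribosomal protein genes 8 had the knockout higher, of 25 at mitochondrial ribosomal protein genes 13, and of 15 at complex I genes 12. Some regions count for more than 1 gene: the one between RPS28 and NDUFA7 (chromosome 19, 8321270 to 8321324, 2.33% and 0.712%) lies at both starts, and so does the one between MRPL36 and NDUFS6, a pair chosen after its values were seen.

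**Figure D5:**
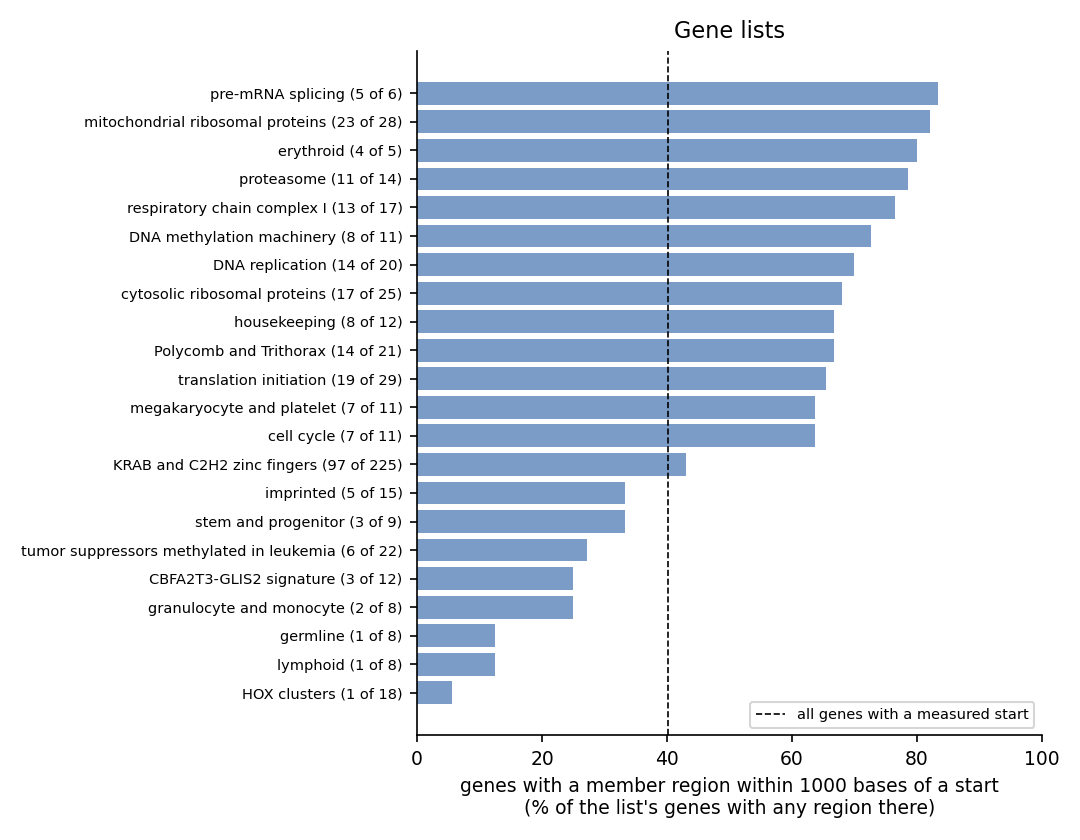
Percent of the measured genes of each list that had a member within 1000 bases of a start, with the counts beside each name and the share over all 9933 measured genes (40.2%) dashed. Lists of basic cell functions stand between 63.6% and 83.3%. The DNA methylation, Polycomb and Trithorax, megakaryocyte and erythroid lists lie in that range too. The lymphoid, germline and HOX lists stand at 12.5% or less.

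Genes of the DNA methylation machinery had a member in 8 of 11 measured genes. Besides DNMT1 these were UHRF1, HELLS, TET2, TET3, MBD2, MAT2A and ZBTB33, with control means from 0.282% to 3.23% and knockout means from 0 to 3.28%. HELLS, a chromatin remodeller gene, had 1.16% and 3.28% over 6 sites. The targeted gene DNMT3B had 3 regions assigned to it, none of them a member and none within 1000 bases of a start, and its 3 regions do not show the edit. DNMT3A, the other de novo enzyme, had 6 regions and no member. Polycomb and Trithorax genes, which keep genes silent or active, had a member in 14 of 21, among them JARID2 (0.668% and 1.87%, 10 sites), KMT2C (3.15% and 0.476%, 9 sites) and MTF2 (2.83% and 0.336%, 9 sites). Further members at these starts had the opposite order, with 0.638% and 2.97%, and 1.34% and 3.07%, at KMT2C, and 0.833% and 2.66% at MTF2. CBX6, a Polycomb gene chosen after its values were seen, had a member with 0.556% and 0.392% over 5 sites and, elsewhere at its start, a called region of 5 sites with 10.5% and 85.8%.

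Genes of the megakaryocyte lineage, the lineage of the cell line, had a member in 7 of 11 measured genes: TAL1, ETV6, GATA2, GFI1B, GP1BB, MYH9 and ZFPM1. Of 8 member regions at these starts 2 had the knockout higher. A TAL1 member other than the one printed had 2.17% and 0.507% over 7 sites. ZFPM1, the cofactor gene of GATA factors, had 2.21% and 1.62% over 7 sites. CD9, ERG, RAB27B and THBS1 had regions but no member. GATA2, a transcription factor gene of blood stem cells chosen after its values were seen, had 6 regions near its starts. A member of 5 sites had 4.27% in the control and 0.513% in the knockout, and 23 sites elsewhere at the same gene (chromosome 3, 128488630 to 128489074) were called with 1.91% and 33.27%. No region was assigned to GATA1, and KIT had 1 region and no member.

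Erythroid genes had a member in 4 of 5. EPB41, a protein of the red cell membrane skeleton, had 1.06% in the control and 0 in the knockout over 7 sites, and SPTB, beta spectrin, had 3.44% and 0 over 5. NFE2L2, a regulator of the oxidative stress response, had 1.77% and 0.239% over 5. TRIM58, chosen after its values were seen, had the opposite order, with 0.705% and 3.41% over 5. Of 5 member regions at these starts 1 had the knockout higher. Stem and progenitor genes had a member in 3 of 9, namely MYCN (0.531% and 2.50%, 9 sites), BMI1 (0.692% and 3.20%, 5 sites) and MSI2 (3.55% and 0.894%, 5 sites). Granulocyte and monocyte genes had one in 2 of 8: CD14, a monocyte surface receptor gene, had 4.58% and 0 over 12 sites, and STAT5B, a mediator of GM-CSF signalling, had 0.417% and 3.45% over 8.

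The lymphoid, germline and HOX lists had few members at their starts. Lymphoid genes had one in 1 of 8, at NOTCH1 (1.02% and 3.04%, 5 sites), and germline genes in 1 of 8, at STAG3 (1.38% and 1.25%, 7 sites). HOX genes had one in 1 of 18, at HOXA13, where 9 sites had 2.88% in the control and 0.741% in the knockout. The neighbouring region at HOXA13, of 34 sites (chromosome 7, 27199670 to 27199803), was called lower in the knockout, with 26.3% and 0.196%.

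Imprinted genes, methylated on 1 parental copy at their control regions, had a member in 5 of 15 measured genes, and SNRPN and SNURF share theirs. That region, 31 bases downstream of a SNURF start (chromosome 15, 24955018 to 24955047), had 0.978% in the control and 4.06% in the knockout over 7 sites, and the adjoining region of 5 sites had 2.42% and 11.4%. BLCAP had 0.449% and 1.60% over 5 sites. PLAGL1, chosen after its values were seen, had the opposite order, with 2.889% and 1.795% over 5 sites. Of 4 member regions at these starts 3 had the knockout higher. GRB10, a growth factor receptor adaptor gene also chosen after its values were seen, had a member of 5 sites with 0.417% and 4.55% and, at another start, a called region of 20 sites with 10.0% and 46.0%. Tumor suppressor genes known to be methylated in leukemia had a member in 6 of 22, among them RASSF1 (0.784% and 2.60%, 10 sites), APC (3.09% and 0.163%, 5 sites) and ESR1, the estrogen receptor gene (1.67% and 2.11%, 5 sites). Of 7 member regions at these starts only 2, those of RASSF1 and ESR1, had the knockout higher. The median over the 7 was 2.56% in the control and 0.684% in the knockout. At ESR1 a nearby region of 5 sites (chromosome 6, 151807849 to 151807884) was called, with 24.3% and 81.4%. CDKN2A and CDKN2B had no member.

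Genes of the CBFA2T3-GLIS2 leukemia signature had a member in 3 of 12, namely SMAD7 (0.704% and 2.06%, 8 sites), PTCH1, a hedgehog receptor gene (2.71% and 0.767%, 7 sites), and SMAD6 (0.676% and 3.04%, 7 sites). Another start of PTCH1 had a called region of 5 sites (chromosome 9, 95509109 to 95509120) with 2.62% and 30.23%. The fusion partners had members away from the starts used here. CBFA2T3 had 2 among 24 assigned regions, of which 1 was called. GLIS2 had 3 among 5, with control means from 0.136% to 0.777% and knockout means from 2.02% to 2.47%. The nearest start used for the GLIS2 members was that of PAM16, at least 23279 bases away. Even so, a GLIS2 member lay 668 bases outside the annotated gene, and a CBFA2T3 member lay within 1000 bases of an annotated gene boundary. RUNX1 had 1 member among 3 regions (0.574% and 3.56%), ERG had none of 2, and MNX1, a homeobox gene, had none of 9, of which 4 were called. KRAB and C2H2 zinc finger genes had one in 97 of 225 (43.1%), near the 40.2% of all genes.

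A few genes gathered several members. GSE1, a gene of 506689 bases on chromosome 16, had 10 among 56 assigned regions, with control means from 0 to 4.95% and knockout means from 0.892% to 4.75%, none within 1000 bases of a start. All 5 regions of MNT, a MAX-binding repressor gene, were members, with control means from 1.32% to 2.89% and knockout means from 0.541% to 1.68%. LOC102723945, a pseudogene annotation of 278678 bases that overlaps many genes, had 8 of 53. SOD2 and WTAP share 4 members at a start, with control means from 0.324% to 3.28%, and 4 were also counted at CPT1A (of 6 regions), LRRC56 (of 7), RUNX1T1 (of 5) and XXYLT1 (of 9). ACTR1A had 3 of 3.

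Members tended to neighbour members. A further region lay within 1000 bases of 1079 members (23.3%), and the nearest one was a member for 597 of them (55.3%), against 9.59% of nearest neighbours over all regions. Neighbouring regions can come from the same fragment or island, and region ends follow the data, so neighbours are not independent. The nearest region was called for 25 of the 1079 members (2.32%), against 7.29% over all regions with a neighbour within 1000 bases. A member cannot itself be called, and 597 of these nearest regions were members, so part of that gap is set by the rule. Counting any called region and not only the nearest, 32 members (0.690%) had one within 1000 bases, and 10 within 100 bases.

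Next come the members of at least 10 sites that lay closest to a called region. A member is under 5% in both groups and a called region differs by at least 25 points. The contrast within each pair is thus set by the rule. At HIP1, a clathrin adaptor gene, a member of 12 sites across the start had 1.77% and 0.793%, and 11 sites ending 12 bases away had 14.7% in the control and 49.2% in the knockout. At NXT2, an RNA export factor gene on X, a member of 14 sites had 3.31% and 4.52%, and 12 sites ending 38 bases away had 8.03% and 55.0%. The member at RGMB, a BMP co-receptor gene, had 1.29% and 1.14% over 13 sites, and 9 sites ending 151 bases away had 3.09% and 40.4%. LOC105378453 had 1.35% and 1.18% beside 16.9% and 47.5%. At LHFPL2, LOC101927984, AKAP8, RNF213, SCRG1 and ZNF414 the called region was 640 to 2714 bases away.

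Among the autosomes and X, the share of regions that were members was highest on chromosome 3 (17.9%) and lowest on X (5.17%, 57 of 1103 regions). Their median levels on X were 1.26% in the control and 2.11% in the knockout. None of 7 regions on Y was a member.

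The regions closest to the threshold of 5% were picked for that closeness, so they cannot show whether the levels have a break there. Just inside were PDGFA (1.70% in the control and 4.999% in the knockout) and SLC25A42 (4.995% and 2.01%). Just outside were PPP1R14B and another region of HIP1, with control means of 5.0% and 5.003%. The largest differences among members were at YJU2B, lower in the knockout (4.98% and 0), and at PLCB3 and PRDM15, higher in the knockout (0 and 4.95% at each), all 3 with 5 sites.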

How the data were processed

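Per the labels' protocols, 500 ng of MspI-cut DNA per library was bisulfite converted and sequenced. Per the submitters' processing notes, the tools were Bismark, HISAT2, methylKit, Trimmomatic and FastQC, without roles, and the build was hg38. No source used here names the program that made the regions. The authors deposited, per the file headers, the level of each region as a percent (1 mean per group of 3 libraries), the difference in points, a q-value, 2 p-values and a number of CpGs. The depth is unknown. Means, medians and shares were computed with Python 3.11.15, pandas 2.3.3 and numpy 2.4.6, and intervals with scipy 1.17.1. Distances and merging were tested on simulated data.

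Gene starts and promoter sequences came from RefSeq (GRCh38.p14, 35116 starts of 27305 genes). Regions were assigned to overlapping genes, otherwise to the nearest within 50000 bases. All but 1 of 1300 listed symbols were found in the annotation. The members, lists and rules were chosen with earlier results of these data known. Named regions are the members with the most sites, the genes with the most members, up to 3 genes per list by sites, 13 fixed genes (1 is not reported here), the largest differences, those at the threshold and those nearest a called region. The members with the most sites were taken near a protein-coding gene, 1 per gene. The rule also asked for members with both means at 0, of which there were none.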

Additional observations from a re-analysis of the deposited data

How the results depend on the processing

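No paired analysis was possible because the table holds 1 mean per group, and for the same reason no library could be left out. With both means under 2%, 1345 regions and 1460 genes remained, 76.1% lay near a start and 0.0744% had a q under 0.01. Under 10%, 69.1% lay near a start, the density was 20.7 sites per 100 bases and 1.49% had such a q. With at least 10 sites there were 251 regions and 279 genes, a median of 11 sites, a density of 18.8, 70.1% near a start and 2.39% with such a q. Without a minimum of sites, 0.553% of regions had both means at 0. With windows of 250 and 2000 bases, 50.01% and 76.9% lay near a start. These shifts follow from the regions or windows taken. Merging members within 1000 bases left 4314, with 73.8% near a start. Autosomes alone, overlapping genes alone, starts alone and leaving out means at exactly 0 (chosen after seeing the data) moved no value beyond its interval or 1.5 times.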

Other observations

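Mitochondrial DNA, which is not packed into nucleosomes, had 3 regions in the table, of which 1 was a member. The member (5 sites at 16411 to 16449) had 0.430% in the control and 4.18% in the knockout. The other regions had 7.25% and 0 over 9 sites (6617 to 6840), and 1.04% and 30.4% over 5 sites (11648 to 11716). Means of the 2 groups differed by 3.75 points at the member, with no spread between libraries to set this against.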
